A study of Mus musculus with 3 samples.

Results

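Neuroblast-like cells of the mouse medial prefrontal cortex (mPFC) tissue were the 150 cell barcodes, of 52083 deposited and 44180 past the filters on detected genes and mitochondrial RNA, chosen by a joint signal of 4 genes of newborn neurons. Sox11, Dcx, Igfbpl1 and Cd24a had to reach 15 unique molecular identifiers (UMIs, counted RNA molecules) per 10000 of the barcode in sum, with at least 3 of the 4 detected and Sox11 at 3 or more per 10000. Slc17a7 was allowed 1 UMI, the glial and vessel genes C1qa, Cldn5, Mog and Gja1 together 5 per 10000, and the ependymal genes Ccdc153 and Tmem212 together 1 UMI. These values chose the cells and are given below as description only.

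The study made 3 droplet single-cell libraries (10x Genomics) to compare mPFC cells across the estrous cycle and sex: estrous females, diestrous females and males, with 2 mice to a library. The mice of a library were pooled and cannot be separated, so no test between conditions was possible, each ratio compares 2 libraries, and all intervals (95%) cover counting error only. The labels used here state no strain, age or treatment. They call the material mPFC neurons, but a microglial gate (C1qa) alone held 3421 of the 12981 filtered estrus barcodes, 2831 of the 14855 diestrus ones and 2683 of the 16344 male ones.

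Neuroblasts are migrating, still immature neurons. In the adult mouse brain they descend from stem cells of the ventricular-subventricular zone through transit-amplifying progenitors, travel along the rostral migratory stream in chains, and become mostly GABAergic interneurons of the olfactory bulb. The transcription factors Sox11 and Sox4 switch on neuronal genes in them, Dcx (doublecortin) binds microtubules in migrating cells, Cd24a is a surface glycoprotein of immature neurons, and Dlx1 and Dlx2 direct the GABAergic fate.

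The 150 cells came from 2 of the 3 libraries. There were 77 among 14855 diestrus cells (0.518%, Clopper-Pearson interval 0.409 to 0.647) and 73 among 16344 male cells (0.447%, interval 0.350 to 0.561). The ratio of these shares, diestrus over male, was 1.16 (interval 0.832 to 1.62), a difference within counting error. The estrus library held 0 of 12981, which allows a share of up to 0.0231% at a limit of 3 cells (Clopper-Pearson upper bound 0.0284%). Its cells were not shallower: the median was 6337 UMIs per cell, against 4806 in diestrus and 4023.5 in male.

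Of the estrus barcodes, 1 reached the sum of the 4 genes, with at least 3 detected, and it fell below the Sox11 level. Igfbpl1, a gene of newborn neurons at chr4:45809468-45826923 (mm10, minus strand), counted 14 UMIs in 10 estrus cells, with at most 3 in a cell. The diestrus count was 655 UMIs and the male count 527, with up to 26 and 18 in a cell. The neuroblast-like cells held 72.4% of the Igfbpl1 UMIs of the diestrus library and 70.8% of those of the male library. Sox11 and Dcx, which other cells also carry, gave 1801 and 2479 UMIs in the estrus library, none in a member. Ependymal cells, which line the ventricles, passed their gate 84 times in diestrus, 0 times in estrus and 0 times in male. With 1 library a group, stage, mouse, dissection and cell capture cannot be told apart.

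The members' sum of the 4 genes ran from 15.9 to 72.5 per 10000 in diestrus (median 32.4) and from 15.1 to 90.4 in male (median 36.9). Just outside it, with every other condition met, the nearest barcodes were at 13.7 in diestrus and 14.6 in male, and between 10 and 15 there were 3 and 2 barcodes, against 9 and 4 members between 15 and 20. No member had its barcode sequence among the members of another library, although each pair of libraries shared 68 to 97 barcode sequences, 1 of them that of a member. A doublet score above 0.3 was found in 1 diestrus member and 0 male members.

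Among the rule's genes, Sox11 (chr12:27334264-27342574, minus strand) had a median of 15.1 per 10000 in diestrus and 17.9 in male, with single cells up to 42.3 and 58.4. Igfbpl1 had medians of 8.14 and 7.05, Dcx (chrX:143855842-143933311, minus strand) of 5.09 and 5.33 and Cd24a (chr10:43578284-43584265, plus strand) of 2.67 and 3.005. The ranges of both libraries overlapped for each gene.

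Sox4 and Dlx2, which the rule did not use, were also present. Sox4 was detected in 74 of 77 diestrus and 71 of 73 male members, and Dlx2 in 40 and 52. Sox4 was thus found in nearly all members, and Dlx2 had no UMI in many of them.

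**Figure D1:**
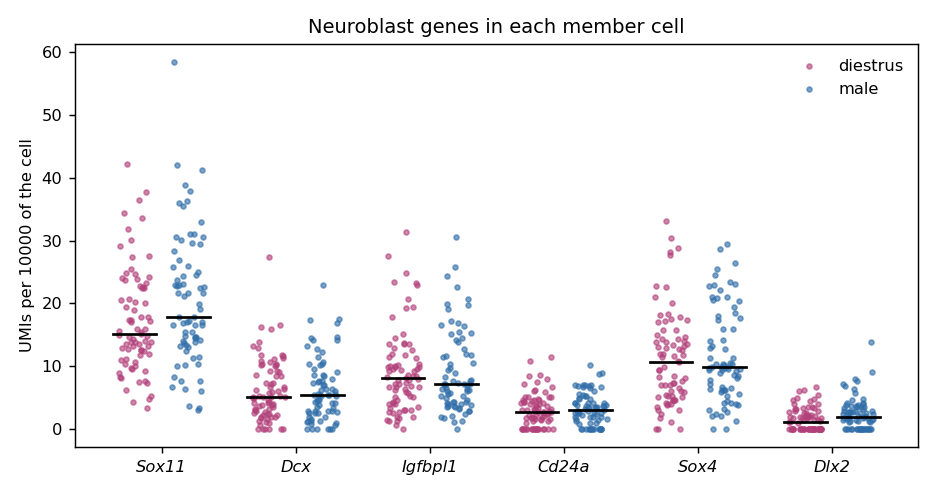
UMIs per 10000 of each member cell (y axis) for the 4 genes of the rule and for Sox4 and Dlx2 (x axis), 77 diestrus cells and 73 male cells, 1 point a cell and bars at the medians. The medians of Sox11 are 15.1 and 17.9, and points of the 2 libraries overlap for every gene.

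RNA that defines other cell types was low beside the level in those cells where a gate was made, and part of it sat in single members. No gate was made for pericyte and smooth muscle, fibroblast or red cell markers. The rule itself limits C1qa, Cldn5, Mog, Gja1 and Slc17a7, so low levels of glial, vessel and glutamatergic markers are partly set by the choice of cells. All 5 choroid plexus markers and all 4 neutrophil markers were at 0 UMIs in both libraries, as were the ependymal genes Ccdc153 and Tmem212, which the rule limits, and Gfap, Gpr17, Bmp4, Enpp6 and Neu4. Summed oligodendrocyte markers stood at 838 counts per 1000000 (CPM) in diestrus and 587 in male members, against 38994 and 34019 in the oligodendrocyte gate, and 40.7% and 48.9% of those UMIs came from 1 cell. Summed astrocyte markers stood at 415 and 583 CPM, against 14575 and 13901 in astrocytes. Pericyte and smooth muscle markers stood at 213 CPM in diestrus and 254 in male, with 90.8% of the diestrus UMIs in 1 cell, and fibroblast markers at 1.64 and 115 CPM. Oligodendrocyte precursor markers stood at 34.4 and 57.4 CPM against 2566 and 2719.8 in their gate, microglial markers at 41.0 and 104, and endothelial markers at 36.1 and 66.2. Haemoglobin and other red cell genes stood at 1287 and 1016 CPM, with 76.3% of the diestrus and 31.5% of the male UMIs in 1 cell. At least 5 UMIs of these genes were found in 7 diestrus and 12 male members.

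GABAergic neurons of the same files, gated by Gad1 and Gad2 with Snap25 (165 estrus, 367 diestrus and 416 male cells), were the nearest mature comparison. Ratios are log2 of summed CPM with 10 CPM added to each side, for genes whose mean over the 2 sides reached 20 CPM. The pooled GABAergic side includes the estrus library, the deepest, which has no members, and this moves the baseline of some genes. Sst stood at 9538 CPM in estrus GABAergic neurons against 4961 in diestrus and 4929 in male, and Meis2 at 5.91 against 50.8 and 24.5. Ratios within the diestrus and male library, which leave estrus out, were -5.59 and -5.72 for Sst and 5.49 and 6.10 for Meis2. Of 7728 such genes, 1113 (14.4%) were at least 2-fold higher in the members and 1516 (19.6%) at least 2-fold lower, with a median of -0.05. Scaling by TMM factors would shift each ratio by -0.12. In the diestrus library alone 15% of genes were higher and 19.8% lower, and in the male library alone 14.1% and 20.3%. Of 7316 genes past the filter in both, 838 (11.5%) were 2-fold higher in both and 1263 (17.3%) lower in both, and 0 pointed in opposite directions past 2-fold. GABAergic cells were deeper (median 23716, 11568 and 6932 UMIs) than the members (6673 in diestrus, 5310 in male).

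The genes highest over GABAergic neurons included genes of dividing cells and of the lineage. Hmgb2, a chromatin protein of proliferating cells (chr8:57511907-57515999), stood at 2150.3 CPM in diestrus and 2031 in male members against 10.1 in GABAergic neurons, a log2 ratio of 6.71. Meis2, a transcription factor of the lateral ganglionic eminence lineage, stood at 2724 and 2358 CPM against 28.8 (log2 6.05), and Mdk, the growth factor midkine, at 570.4 and 596 against 1.66 (log2 5.66). Pclaf, a replication clamp partner, Hist1h1b, a linker histone, and the non-coding Lockd were also among the 15 highest, with log2 ratios of 5.54, 5.28 and 4.98. So were the unnamed transcripts 2610307P16Rik (5.75), Gm29260 (5.66) and Gm17750 (5.19). The 10 lowest included neuropeptides of mature interneurons. Vip stood at 9.83 and 8.83 CPM against 2241, Npy at 22.9 and 37.5 against 4076, and Sst at 93.4 and 83.9 against 6289, log2 ratios of -6.86, -6.71 and -5.99. Galntl6 (log2 -7.08), Kcnip4 (-5.72), Snhg11 (-5.46), Lingo2 (-5.36), Csmd1 (-5.31), Tac2 (-5.31) and the kainate receptor gene Grik1 (-5.30) made up the rest.

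Genes of the young neuron's cytoskeleton were higher than in GABAergic neurons in part. Of 22 listed genes, all past the filter, 11 were 2-fold higher and 4 lower, median log2 1.204, while within both libraries 11 were higher and 1, Gap43, lower. Stmn1, which destabilises microtubules, stood at 4153 CPM (interval 3993 to 4318) in diestrus and 5142 (4935 to 5355) in male members, and at 1061 in GABAergic neurons (log2 2.10). Tuba1a, the tubulin of growing neurons, stood at 2804 and 3493 against 689 (2.15), Tmsb10 at 2454 and 2484 against 560.0 (2.12), and Tubb2b at 995 and 1406 against 66.2 (3.95). Gap43, a growth cone protein, was lower, at 113 and 152 CPM against 441 (-1.69), and Stmn3 was lower in the pooled ratio (-1.29) but short of 2-fold in the male library (-1.17 in diestrus, -0.99 in male). Stmn2 stood at 1231 and 1627 CPM against 846, short of 2-fold.

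In the list of the Dlx network and the lateral ganglionic eminence, 13 of 15 genes past the filter (20 listed) were 2-fold higher and 0 lower, median 2.15. Not all of the list was present: Isl1 gave 0 UMIs in the members, and Zfp503 stood at 0.941 CPM over both libraries. Dlx1 stood at 390.1 and 408 CPM (log2 1.89), Dlx2 at 177 and 230 against 32.2 (2.31), and the Dlx antisense transcript Dlx6os1 at 1251 and 1002 against 332 (1.75). Dlx6os1 lies beside Dlx6 on the other strand, and their reads cannot be told apart if counting ignored strand. Pax6, a factor of dorsal progenitors and olfactory bulb interneurons, stood at 157 and 245 CPM against 4.01 (3.87), and Foxp2 at 254 and 128 against 8.29 (3.52).

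By cell, at least 1 UMI of Dlx1, Dlx2, Dlx5, Dlx6 or Dlx6os1 was found in 72 of 77 diestrus and 69 of 73 male members, against 2.83% and 2.98% of microglia, which should lack them (median 4390 and 3228 UMIs). Meis2 was found in 76 and 71 members (microglia 6.64% and 7.23%), and Sp8 or Sp9 in 54 and 54 (0.706% and 0.596%). Gad1 or Gad2, the GABA-synthesising enzymes, were found in 64 and 64 members, against 12.4% and 11.0% of microglia.

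The medial and caudal ganglionic eminence list, which marks the origin of most cortical interneurons, went the other way against these GABAergic neurons. Of 10 genes past the filter 1 was higher and 7 lower (median -1.53, with genes at 0 set to their bounds as well). Within both libraries 1 was higher and 8 lower. The list's summed level was 2401 CPM in diestrus and 1508 in male members, against 4739 and 4006 in GABAergic neurons. Oligodendrocyte precursors stood at 2508 and 2002 CPM and microglia at 1770 and 1717, so the lower count depends on the cells compared with. Lhx6, Nkx2-1, Lhx8 and Npas1 gave 0 UMIs in all 150 members. Against the limit of 3 counts over all members, GABAergic neurons were at least 17.3-fold higher in Lhx6 and at least 38.5-fold higher in Npas1. Sox6 was the gene higher in the members, at 523 and 464 CPM against 192 (log2 1.33). Adarb2, of the caudal lineage, stood at 1549 and 779 CPM against 2722. The pallial (glutamatergic) list had 0 of 12 genes past the pooled filter, but its RNA was not absent. Its summed level was 156 CPM in diestrus and 168 in male members, against 24.5 and 30.0 in GABAergic neurons. Microglia stood at 79.8 and 91.4 CPM. Eomes, of excitatory progenitors, stood at 41.0 and 26.5 CPM in the members. At least 2 UMIs of Eomes, Neurod1, Neurog2 or Tbr1 were found in 5 members of each library (microglia 0.495% and 0.485%), and 4 of each 5 had no UMI of the Dlx genes.

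Genes of mature neuronal function were low. Of 17 mature neuron genes past the filter 14 were 2-fold lower and 1 higher (median -2.59), of 13 glutamate receptor genes 11 were lower (-2.97), of 9 GABA-A receptor genes 8 (-2.03), and of 14 cortical interneuron genes all 14 (-3.66, or -3.91 with Lhx6 at its bound). Within both libraries the lower counts were 13 of 17, 11 of 13, 8 of 9 and 12 of 13. The cells compared with are GABAergic neurons of the mPFC, so the lower cortical interneuron count depends on that choice. The cortical interneuron list shares Lhx6 and Adarb2 with the medial and caudal ganglionic eminence list. Syt1, the calcium sensor of vesicle release, stood at 208 and 170.0 CPM against 3376 (log2 -4.07). Gad2 stood at 362 and 503 CPM against 1234 (-1.52) and Gad1 at 174 and 137 against 984 (-2.56), but Gad1, Gad2 and Snap25 also chose the GABAergic neurons. Slc12a5, the chloride exporter of mature neurons, stood at 14.8 and 19.9 CPM (-3.10), while Slc12a2, the chloride importer, stood at 50.8 and 44.2 (0.37). Map2 was the gene of the mature list higher in the members (1.43). Of 9 olfactory bulb interneuron genes 8 were lower, and Th was at 0 UMIs in diestrus and 1 in male. That list shares Vip and Pvalb with the cortical interneuron list. The GABAergic neurons carried Vip at 2241 and Calb2, also of the list, at 265 CPM, so the lower count depends on the cells compared with.

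Chromatin and RNA regulators of newborn neurons, a list that holds Sox11 and Sox4, were higher in 17 of 19 genes and lower in 0 (median 2.15), and in 15 of 18 within both libraries. Sox11 is a gene of the rule, so its call is set by the choice of cells and is no result. Nfia stood at 1819 and 1247 CPM against 47.5 (log2 4.79), Hmgn2 at 1596 and 1470.5 against 44.8 (4.82), and the chromatin remodeller Chd7 at 410 and 254 against 8.29 (4.27). Ezh2, which methylates histone H3, stood at 433 and 364 against 15.3 (4.03). In the list of cell cycle exit genes and inhibitors 5 of 9 were higher and 0 lower (1.37). Btg1, an antiproliferative gene, stood at 377 and 453 CPM against 46.6 (2.89), and Cdkn1b, an inhibitor of cyclin-dependent kinases, at 216 and 294 against 51.6 (2.07). Ccnd2, also on the list, is a D-type cyclin that drives progress through G1 and no exit gene, and it holds most of the list's RNA. It stood at 3179.6 CPM in diestrus and 2934 in male members against 124 (4.52).

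Migration genes were mixed, with 6 of 20 higher and 3 lower (median 0.12). St8sia2, which builds the polysialic acid of migrating neuroblasts, stood at 107 and 104 CPM against 8.29 (log2 2.66), its carrier Ncam1 at 1249 and 1221 against 509.6 (1.26), and Rnd3 at 218 and 347 against 31.5 (2.77). Erbb4, a neuregulin receptor, stood at 2627 and 1523 against 3031 (-0.49). Reln, the secreted stop signal, gave 0 UMIs in diestrus and 1 in male (-5.30). Among guidance receptors 4 of 14 were higher and 3 lower: Dcc, the netrin receptor, stood at 2704 and 1866 CPM against 339.9 (2.75), Robo2, a slit receptor, at 1834 and 1411 against 404 (2.01), and Robo1 at 146 and 174 against 668 (-2.01). Of 12 guidance ligands 2 were higher and 4 lower, beside 14.4% higher and 19.6% lower of all genes. Within both libraries, 3 guidance receptors were higher and 3 lower, and 1 ligand was higher and 4 lower.

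Several receptors for hormones were not detected in the members, and others were. Esr1, Esr2, Prlr, Oxtr and Avpr1a gave 0 UMIs in all members, which allows up to 4.92 CPM in diestrus and 6.62 in male, and Pgr gave 1 UMI. Of 9 steroid and hormone receptor genes past the filter 0 were higher and 5 lower. Within both libraries, 0 of 8 were higher and 4 lower. Pgrmc1, a progesterone receptor membrane component, stood at 90.1 and 110.4 CPM against 382 (log2 -1.85), and Rora, an orphan nuclear receptor, at 184 and 247 against 418 (-0.96). Thra, a thyroid hormone receptor, stood at 200.0 and 258 CPM against 446 (log2 -0.96). Esr1 was low in GABAergic neurons too (4.08 CPM). Cell death genes were higher in 2 of 6 (Trp53 among them, 1.84) and immediate early and stress genes in 2 of 11 with 1 lower. Of all genes 14.4% were higher and 19.6% lower, so these small counts set neither list apart.

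**Figure D2:**
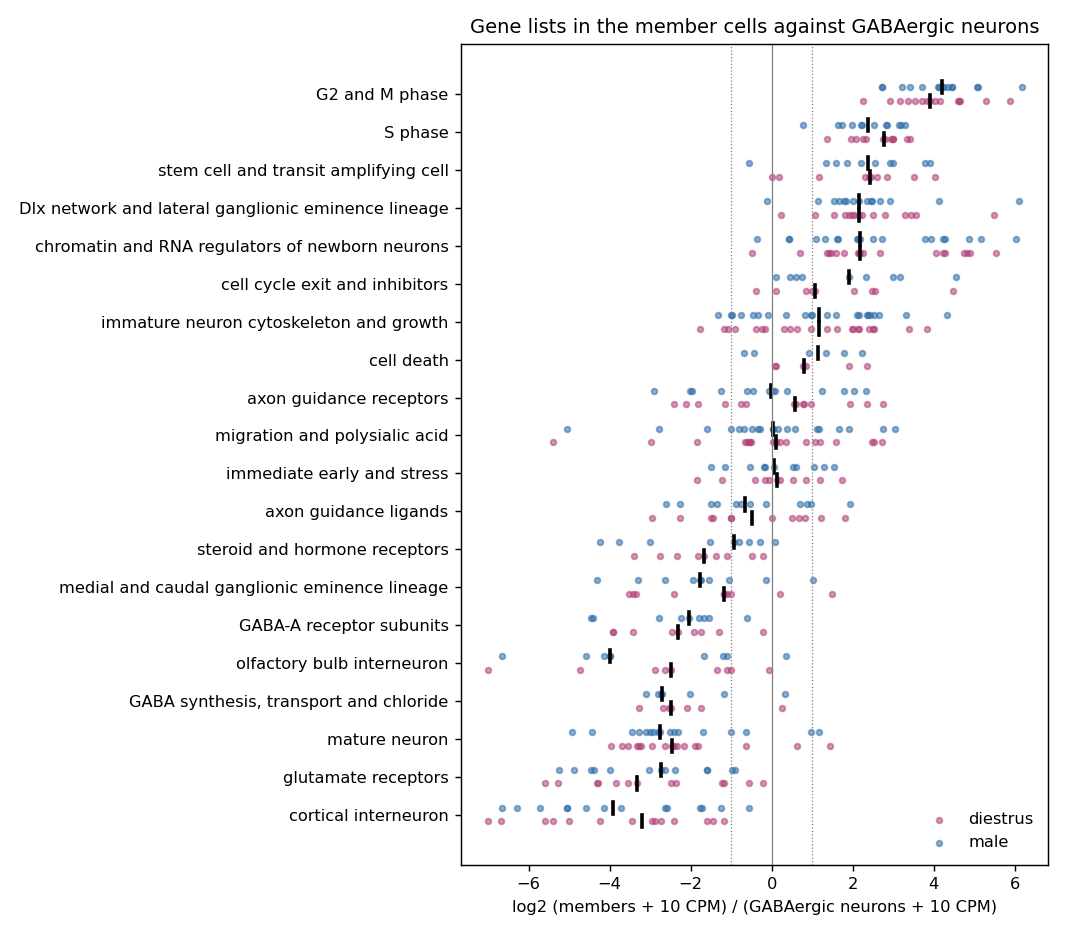
Log2 ratio of summed CPM, members over GABAergic neurons, with 10 CPM added (x axis), for each gene past the filter of the lists (y axis; the neuroblast marker, pallial and sex chromosome lists are not plotted), in the diestrus and the male library, with black bars at each library's median and dotted lines at 2-fold. Lists of cell division lie at the right and interneuron lists at the left in both libraries, with G2 and M phase genes highest of the lists plotted (pooled median 4.02).

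Part of the cells carried RNA of dividing cells. At least 3 of 15 G2 and M phase genes were detected in 23 of 77 diestrus members (29.9%, interval 20.0 to 41.4) and 26 of 73 male members (35.6%, 24.7 to 47.7). The intervals of both libraries overlap. Few cells lay near the limit: 54 and 45 members had 0 or 1 gene, 0 and 2 had exactly 2, and 17 and 17 had 8 or more. GABAergic neurons reached 3 genes in 0 of 165 (up to 1.82% possible), 1 of 367 and 0 of 416 cells (up to 0.721%) of the estrus, diestrus and male library. These bounds of the 0 counts use a limit of 3 cells, and the Clopper-Pearson upper bounds are 2.21% and 0.883%. Oligodendrocyte precursors, which divide in the adult, reached it in 10 of 359, 16 of 351 and 9 of 346.

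Depth moved with this split. Members with G2/M RNA had a median of 12127 UMIs in diestrus and 8060.5 in male, the others 5474 and 4718. Their median doublet scores were 0.0631 and 0.0581, against 0.0433 and 0.0496 in the others. Thinned to 1500 UMIs a cell, with no member left out, 15 of 77 (19.5%) and 16 of 73 (21.9%) still had 3 of the genes, against 0 of 161, 0 of 283 and 0 of 304 GABAergic neurons deep enough to be thinned. Thinned oligodendrocyte precursors gave 5 of 353, 12 of 324 and 8 of 310. Adding S phase genes gave 38 of 77 and 32 of 73 members, but also 94 of 165, 108 of 367 and 105 of 416 of the deeper GABAergic neurons. Thinned, it was 22 of 77 and 23 of 73 members against 0 in each library of GABAergic neurons.

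**Figure D3:**
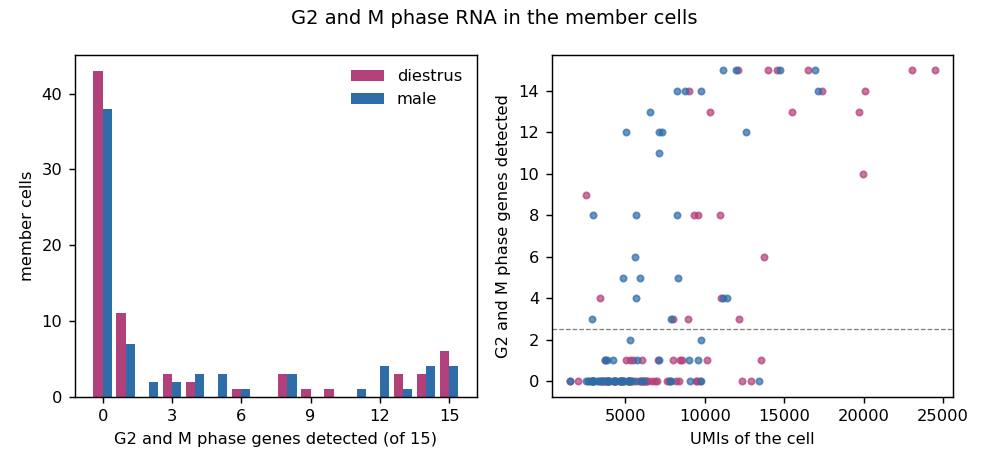
Left, number of member cells (y axis) by the number of the 15 G2 and M phase genes detected (x axis), diestrus and male. Right, the same number (y axis) against the UMIs of the cell (x axis), 1 point a cell, with the dashed line below 3 genes. 43 diestrus and 38 male members have 0 genes, and 17 in each library have 8 or more.

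All 15 G2 and M phase genes were 2-fold higher in the members than in GABAergic neurons (median 4.02), as were 12 of 12 S phase genes past the filter (2.60). Top2a, the topoisomerase that untangles chromosomes (chr11:98992943-99024189), counted 381 UMIs in 23 diestrus members and 336 in 22 male members, 624 and 742 CPM against 0.484 in GABAergic neurons (log2 6.03). Cenpf, of the kinetochore, stood at 413 and 327 CPM (5.23), and Ube2c, which drives mitotic exit, at 243 and 331 (4.84). In Cenpf 38.9% of the diestrus and 34.5% of the male UMIs came from 1 cell.

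Many promoters of G2 and M phase genes are known to hold 2 motifs, and these genes were higher in the members together, so their promoters are shown. The 4 below are the list genes of highest CPM in the members with an entry among the RefSeq windows of build GRCm38.p6, each 300 bases around a transcript start, 5′ to 3′ on the gene's strand. Capitals mark CCAAT, the box bound by the factor NF-Y, and TTTGAA, the core of the cell cycle homology region (CHR), on either strand. Positions are chr11:99024140-99024439 for Top2a (minus strand), chr1:189688037-189688336 for Cenpf (minus), chr2:164769679-164769978 for Ube2c (plus) and chr7:80294201-80294500 for Prc1 (plus).
Top2a: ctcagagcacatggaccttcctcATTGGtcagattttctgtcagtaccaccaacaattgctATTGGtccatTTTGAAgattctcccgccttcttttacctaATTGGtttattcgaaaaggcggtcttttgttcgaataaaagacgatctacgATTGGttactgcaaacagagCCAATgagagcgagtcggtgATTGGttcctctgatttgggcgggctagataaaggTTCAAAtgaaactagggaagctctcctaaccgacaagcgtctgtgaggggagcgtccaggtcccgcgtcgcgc
Cenpf: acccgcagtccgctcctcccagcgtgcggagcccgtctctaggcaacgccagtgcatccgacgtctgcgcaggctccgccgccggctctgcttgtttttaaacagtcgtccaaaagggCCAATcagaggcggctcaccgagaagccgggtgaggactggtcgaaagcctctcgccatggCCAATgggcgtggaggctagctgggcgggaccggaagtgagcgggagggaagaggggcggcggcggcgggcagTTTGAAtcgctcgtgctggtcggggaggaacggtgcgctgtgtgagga
Ube2c: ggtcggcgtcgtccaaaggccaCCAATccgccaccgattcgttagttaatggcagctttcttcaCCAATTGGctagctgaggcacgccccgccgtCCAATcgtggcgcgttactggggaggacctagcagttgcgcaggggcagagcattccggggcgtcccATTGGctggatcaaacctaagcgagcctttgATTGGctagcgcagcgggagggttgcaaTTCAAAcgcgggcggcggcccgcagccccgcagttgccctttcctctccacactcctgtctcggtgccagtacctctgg
Prc1: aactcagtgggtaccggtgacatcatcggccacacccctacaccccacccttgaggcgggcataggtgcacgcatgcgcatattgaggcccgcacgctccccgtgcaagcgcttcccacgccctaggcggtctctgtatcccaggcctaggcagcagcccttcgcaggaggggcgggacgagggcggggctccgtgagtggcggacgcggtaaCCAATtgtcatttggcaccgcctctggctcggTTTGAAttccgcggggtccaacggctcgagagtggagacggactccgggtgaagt
CCAAT or its complement ATTGG matched in 10 of 12 G2 and M phase genes with a window (15 listed) and in 37.4% of all 32851 windows. The lists count 1 window a gene, while the 32851 windows cover 27025 gene symbols, some of them more than once. TTTGAA or its complement TTCAAA matched in 8 of 12 G2 and M phase genes and in 17.9% of all windows, and both motifs in 8 of 12 and 6.95%. Of the 6 neuroblast marker genes, 4 had a window. CCAAT or its complement matched in all 4 of these, TTTGAA or its complement in 1, and both in 1. The CCAAT match therefore did not set the G2 and M phase genes apart from the neuroblast markers. In the printed windows the motifs share bases only in that of Ube2c, where a CCAAT runs into an ATTGG. A match is a description of letters, and no binding was measured here.

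Other genes differed between members with and without G2/M RNA. Over 6314 genes, 373 (5.91%) were 2-fold higher in the cells with G2/M RNA in both libraries and 191 (3.03%) lower in both. The 15 G2 and M phase genes made the split and are no result of it. Stem cell and transit-amplifying genes were higher in 5 of 10 and lower in 0. Among them Rrm2, a subunit of the enzyme that makes DNA building blocks, stood at 301 against 38.2 CPM in diestrus and 271 against 29.8 CPM in male (log2 2.69 and 2.82).

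Cytoskeleton and guidance genes differed in part between these cells. Of 22 cytoskeleton genes 6 were lower in the cells with G2/M RNA and 0 higher, among them Tubb3 (362 against 976 CPM in diestrus, 504 against 1073 in male, log2 -1.41 and -1.07), Tubb2b (-1.49, -1.26), Nrep (-1.82, -1.87) and Stmn4 (-2.19, -1.84). Dcx, of the rule, stood at 389 against 687 and 326 against 800.4 CPM (-0.80, -1.27), while Sox11 was nearly level (0.21, 0.14). Stmn1 (0.33, 0.54) and Marcks (0.36, 0.78) leaned the other way, short of 2-fold. Of the mature neuron genes 1 of 14 was lower in both libraries, of the glutamate receptor genes 1 of 7 and of the GABA-A receptor genes 0 of 4, and 0 of each list were higher in both. Guidance receptors were lower in 6 of 14 and higher in 1, with Robo2 at 653 against 2944 and 674 against 2095 CPM (-2.16, -1.62). Dcc leaned the other way (0.61, 0.96). Btg1 was lower (-1.70, -1.31), and Ccnd2 leaned higher (0.87, 0.77).

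Pbx3 and Adarb2, named after their values were seen, were among the lowest of all genes in the cells with G2/M RNA. Pbx3, a homeodomain factor, stood at 13.5 against 1631 CPM in diestrus and 41.3 against 536 in male (log2 -6.12, -3.41). Adarb2 stood at 57.5 against 2951 and 138 against 1375 CPM (-5.45, -3.23). Meis2 was also lower (1377 against 3990.4 and 1312 against 3329 CPM, -1.53 and -1.34). At 1500 UMIs a cell, Adarb2 was detected in 2 of 23 cells with G2/M RNA against 34 of 54 others in diestrus, and in 3 of 26 against 25 of 47 in male. Gad1 or Gad2 were detected in 6 of 23 against 35 of 54, and in 9 of 26 against 35 of 47. Sp8 or Sp9 were detected in 4 of 23 against 20 of 54, and in 11 of 26 against 20 of 47, shares whose intervals overlap.

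**Figure D4:**
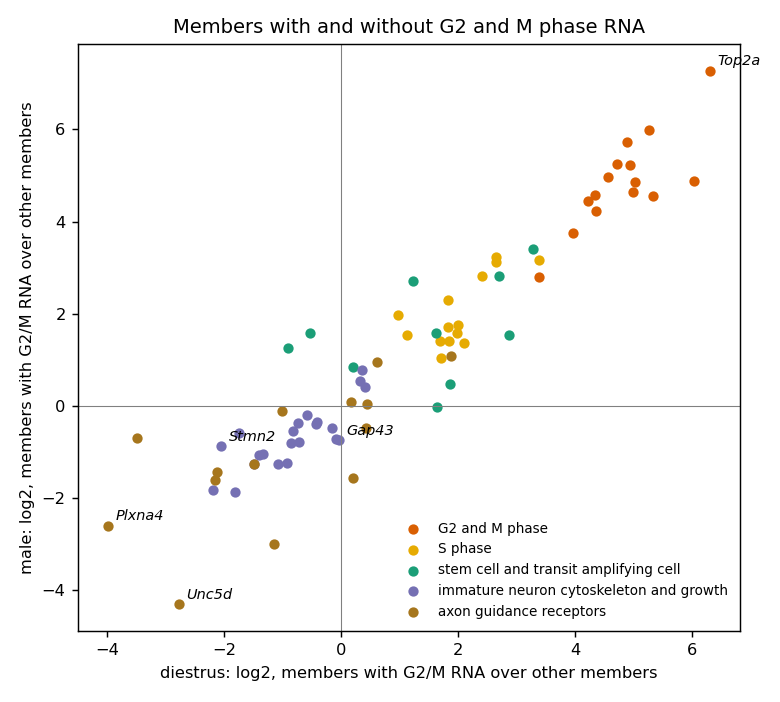
Log2 ratio of CPM with 10 CPM added, members with G2/M RNA over the other members, in diestrus (x axis) and in male (y axis), 1 point a gene of 5 lists that passed the filter in both. The G2 and M phase genes at the upper right defined the split. Plxna4 lies at -3.98 and -2.60 and Unc5d at -2.78 and -4.31.

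Members of the diestrus and male libraries differed in few genes. Of 7148 genes, 127 (1.78%) were 2-fold higher in diestrus and 85 (1.19%) lower. Sex-linked genes matched the labels. Xist, the non-coding RNA of X inactivation, gave 814 UMIs in diestrus and 0 in male, at least 201-fold higher. Tsix, on the other strand of the same locus, gave 67 and 0, and its reads cannot be told apart from those of Xist if counting ignored strand. The Y-linked Eif2s3y and Uty gave 0 UMIs in diestrus and 41 and 36 in male, at least 18.4-fold and 16.2-fold higher.

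Most of the other genes furthest apart rested on few cells. Acta2, a smooth muscle actin, gave 76 UMIs in 3 diestrus members, 97.4% of them in 1 cell, and 1 UMI in male. Tagln and Myl9, also of smooth muscle, stood at 68.8 and 77.0 CPM in diestrus against 2.21 and 4.42 in male, with 100% and 91.5% in 1 cell. Vtn, a pericyte gene, stood at 11.5 CPM in diestrus and 208 in male (7 male cells), and Slc7a11 and Igfbp2 were likewise higher in male. In an alternative, members holding 5 or more UMIs of pericyte, smooth muscle and fibroblast markers were left out. Acta2, Tagln and Vtn are themselves among those markers. Their log2 ratios went from 3.46 to 0.11, from 2.69 to -0.31 and from -3.34 to -0.15. The choice of cells left out sets these 3 changes in large part. Myl9, Slc7a11 and Igfbp2 are not among the markers. Without those members the log2 ratio went from 2.59 to 0.60 for Myl9, from -2.89 to 0.11 for Slc7a11 and from -2.60 to -0.15 for Igfbp2.

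Gpc5 (4.92 CPM in diestrus, 146 in male, log2 -3.38, 60.6% of the male UMIs in 1 cell) and S100a6 (-2.52) were lower in diestrus with those members kept, and stood at -3.61 and -1.55 without them. Calb2, calretinin of interneurons, gave 73 UMIs in 4 diestrus members, 86.3% in 1 cell, and 2 UMIs in 2 male members (log2 3.17, and 1.11 without the highest cell of each library). Egfem1 (2.40) and Olfm3 (2.25) were also higher in diestrus, in 8 members each.

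Among listed genes, Pbx3 was higher in diestrus members, at 847 CPM (interval 776 to 924) against 298 (250 to 353), log2 1.48, with the same value without the highest cell of each library. It was found in 32 diestrus and 25 male members. Fos (1.13), Unc5c (1.08) and Slit2 (1.32, with 54.4% of the diestrus UMIs in 1 cell) passed 2-fold upward, and Id3 (-1.56) downward. Neuroblast markers ranged from -0.36 (Dlx2) to -0.07 (Dcx), all short of 2-fold. Gene length moved with the library difference: the median log2 ratio ran from -0.18 in the shortest of 5 groups of genes (median 5.16 kb) to 0.23 in the longest (183 kb), with Spearman's rho 0.345 over 7148 genes as a description. Pbx3 (202 kb), Unc5c (370 kb) and Slit2 (325 kb) are long genes, and the part of length in their ratios was not tested.

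**Figure D5:**
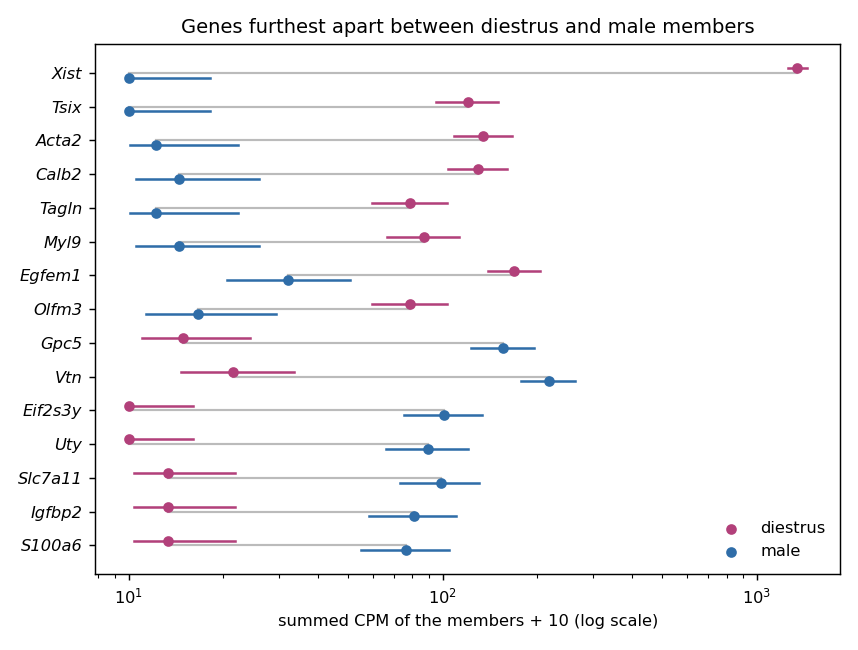
Summed CPM of the members plus 10 (x axis, log scale) in the diestrus and male library for genes among the 8 of highest and the 8 of lowest ratio with at least 30 UMIs (y axis), with exact Poisson intervals of 95% as bars. Xist stands at 1334 CPM in diestrus and 0 in male.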

How the data were processed

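Single-cell libraries of mPFC tissue (papain digestion, Percoll, 10x Genomics 3′ v3.1 chemistry, 15000 cells loaded, per the labels' protocols) were used as the deposited counts, which are raw UMI counts per gene and barcode without normalization. Sources conflict on the software: Cell Ranger 3.0.2 with build mm10 per the submitters' processing notes, Cell Ranger 7.0.0 per the file headers. Annotation, intron counting, strand setting and cell calling: not given in the sources used here.

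Barcodes with at least 500 genes and at most 15% mitochondrial UMIs entered. Libraries held 152291602 (estrus), 144738154 (diestrus) and 115632520 (male) UMIs. The members and gene lists were chosen with earlier results of these data known. UMIs were summed over cells of a library and gate and divided by the non-mitochondrial total (CPM). No test was run, since each group is 1 library. Shares have Clopper-Pearson and counts exact Poisson intervals, and 0 counts a limit of 3. Cells were scored for doublets with Scrublet (scanpy 1.11.5), 263, 166 and 209 barcodes (2.03%, 1.12% and 1.28%) scored above 0.3, and none was removed in the main values. The 1 member of high score was left out in an alternative.

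Genes named are those of the rule, the 4 highest and 2 lowest of each list in CPM, the 15 highest and 10 lowest over GABAergic neurons, and the 8 highest and 8 lowest between libraries with 30 or more UMIs. Some genes under this rule are not reported here. Other listed genes, Lhx6 and Map2 among them, were named after their values were seen. TMM factors came from edgeR 4.0.16. Coordinates come from GENCODE (mm10), matched by identifier for 32235 of 32285 features. The scripts were tested on simulated data.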

Additional observations from a re-analysis of the deposited data

How the results depend on the processing

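No paired analysis was possible because each group is 1 library, and no replicate could be left out. Of 172 alternative values, 120 stayed within the counting interval of the main value, or for counts of genes within 1.5 times, and 52 moved outside. A sum of at least 25 per 10000 left 59 diestrus and 57 male members, and the estrus library had 0 members under each alternative to the choice of cells. With that sum, these lists moved to the following summed levels over both libraries (in CPM): neuroblast markers 5622, immature neuron cytoskeleton and growth 21947, Dlx network and lateral ganglionic eminence lineage 7097, medial and caudal ganglionic eminence lineage 2161, pallial glutamatergic lineage 198, stem cell and transit amplifying cell 1019.9, S phase 1045, G2 and M phase 3009.6, migration and polysialic acid 7034, axon guidance receptors 6153, GABA synthesis, transport and chloride 890.5, mature neuron 4184, cortical interneuron 1731, chromatin and RNA regulators of newborn neurons 18365, immediate early and stress 2239. A mean over cells, which weights shallow cells more, gave neuroblast markers 5222, immature neuron cytoskeleton and growth 21942, Dlx network and lateral ganglionic eminence lineage 7717, medial and caudal ganglionic eminence lineage 2547, stem cell and transit amplifying cell 931, S phase 1048, G2 and M phase 1848, cell cycle exit and inhibitors 3718, migration and polysialic acid 7547, axon guidance ligands 753, GABA synthesis, transport and chloride 933, glutamate receptors 1563, mature neuron 4418, olfactory bulb interneuron 1203, cortical interneuron 2338, chromatin and RNA regulators of newborn neurons 16612, immediate early and stress 2112. Weighting the libraries alike moved the sex chromosome list to 787. Against GABAergic neurons, 50 CPM added left 568 genes higher and 795 lower, and a mean of at least 50 CPM left 704 and 907, the filter testing fewer genes. Between libraries, 1 CPM added gave 283 higher and 194 lower in diestrus, 50 CPM added 17 and 14, and a mean of at least 50 CPM 44 and 17, so this count depends on the pseudocount. The S or G2/M share went from 49.4% to 28.6% (thinned), 63.6% (2 genes) and 33.8% (5 genes) in diestrus and from 43.8% to 31.5% and 58.9% (2 genes) in male, and the G2/M share to 19.5% and 21.9% when thinned. The sum of at least 25 per 10000 is a cut on Sox11, Dcx, Igfbpl1 and Cd24a. It therefore sets the move of the neuroblast marker list, which holds these genes, and the chromatin list holds Sox11. The cause of the other moves was not tested. The settings on pericyte or fibroblast UMIs and on G2/M genes alone were chosen after seeing the data. Depth limits any gene at 0 UMIs to the bounds given.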
